A study of Mus musculus with 400 samples.

Results

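The report concerns 180 single mouse intestinal stem cells, 90 with a high and 90 with a low level of immediate early transcripts, out of 400 cells sequenced. Cells with at least 10000 counts were kept, which left 380. The cells were chosen by a score from the same data, the mean of log2(CPM + 1) over Fos, Fosb, Egr1, Atf3, Zfp36 and Junb. CPM is the usual depth-scaled count, a gene's share of all counts of the cell. Within each of 10 library sets, named by a number in the sample titles, the 9 highest-scoring cells (high cells) were compared with the 9 lowest-scoring (low cells), of 36 to 39 kept cells per set. All cells were sorted as Lgr5-high from the small intestinal epithelium of Lgr5 GFP/+ mice, which carry a green fluorescent protein and an inducible Cre recombinase at the Lgr5 locus. Crypts from the duodenum and jejunum had been released with EDTA and dissociated with dispase at 37 °C for 20 min, dead cells were gated out with DAPI, and cDNA was made on a Fluidigm C1 high-throughput chip. A tamoxifen dose in the labels belongs to lineage tracing, and the labels do not state the age or number of mice behind these cells. With no animal named, the cells form 1 sample, and neither p-values nor standard errors were computed. Every SD is over the 10 library sets. A ratio or list median printed with ± comes from all cells of each class together. The SD beside it is taken around the mean over sets, which can differ from the printed value. The SD is a technical spread, and since a class has 9 cells per set it includes cell-to-cell differences too.

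Immediate early genes are transcribed within minutes of a growth factor, stress or wounding signal and need no new protein synthesis. Signals through MAP kinases reach factors already bound to their promoters, such as serum response factor at CArG boxes and CREB at cAMP response elements. Many of their products are transcription factors, among them the Fos and Jun families, which pair to form AP-1. Others close the loop: phosphatases such as Dusp1 switch off MAP kinases, and RNA-binding proteins such as Zfp36 direct the decay of short-lived mRNAs. In the crypt, growth factor signalling supports stem cell division, and tissue dissociation at warm temperature is known to induce the same genes.

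The promoters of the gate genes are shown because the grouping rests on their transcription. Each run is the 250 bases before the gene start in RefSeq (build GRCm38.p6), on the strand of the gene, and capitals mark a CArG box or TGACG on either strand, the core of a cAMP response element.
Fos, chr12:85473640-85473889, plus strand: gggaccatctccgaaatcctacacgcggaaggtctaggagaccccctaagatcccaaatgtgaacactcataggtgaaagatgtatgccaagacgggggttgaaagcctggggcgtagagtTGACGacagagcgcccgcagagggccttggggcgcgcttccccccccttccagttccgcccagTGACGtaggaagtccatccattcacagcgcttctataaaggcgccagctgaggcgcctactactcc
Fosb, chr7:19310046-19310295, minus strand: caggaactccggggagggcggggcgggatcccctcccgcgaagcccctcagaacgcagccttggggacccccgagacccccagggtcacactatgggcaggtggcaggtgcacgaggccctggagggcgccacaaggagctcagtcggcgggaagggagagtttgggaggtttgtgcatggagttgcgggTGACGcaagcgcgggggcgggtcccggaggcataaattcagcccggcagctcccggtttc
Junb, chr8:84978749-84978998, minus strand: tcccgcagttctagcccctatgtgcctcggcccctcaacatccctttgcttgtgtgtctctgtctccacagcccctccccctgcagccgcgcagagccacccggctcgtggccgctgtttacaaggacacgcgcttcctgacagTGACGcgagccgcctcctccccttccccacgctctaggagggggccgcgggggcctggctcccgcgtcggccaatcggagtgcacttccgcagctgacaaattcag
Atf3, chr1:191183334-191183583, minus strand: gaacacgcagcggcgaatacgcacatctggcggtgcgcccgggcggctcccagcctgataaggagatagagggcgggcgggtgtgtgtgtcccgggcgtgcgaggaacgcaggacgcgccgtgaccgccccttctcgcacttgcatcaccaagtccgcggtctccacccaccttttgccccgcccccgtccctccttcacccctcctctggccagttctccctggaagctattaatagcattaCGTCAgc
Zfp36, chr7:28379229-28379478, minus strand: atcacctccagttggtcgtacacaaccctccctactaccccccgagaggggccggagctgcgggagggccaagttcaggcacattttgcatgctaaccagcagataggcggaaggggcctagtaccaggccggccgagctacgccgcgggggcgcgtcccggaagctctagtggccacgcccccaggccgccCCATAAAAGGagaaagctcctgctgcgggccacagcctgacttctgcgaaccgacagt
The Fos window held TGACG at 2 positions, the nearer starting 66 bases before the gene start. Fosb, Junb and Atf3 each held it once, 60 bases before the start in Fosb and 7 in Atf3, where it is the reverse complement. Zfp36 held no TGACG but a CArG box starting 58 bases before the start. TGACG thus stood in 4 of the 5 gate promoters shown, and in 17.9% of 27025 RefSeq promoters of that length. A CArG box stood in 1 of the 5, against 1.4% of all. The AP-1 site TGANTCA was in none of the 5 windows, and in 6.87% of all. The Egr motif GCGNGGGCG was in Fosb and Zfp36, and in 4.65% of all. A match describes the letters only. Sites farther than 250 bases before the start, or with another spelling of a motif, were not searched, so a missing match does not show that a gene lacks the site. Egr1, the remaining gate gene, had no promoter entry.

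Scores of the high cells ran from 6.83 to 8.76 with a median of 7.83, and those of the low cells from 2.10 to 6.40 with a median of 5.10. The median of a whole library set ranged from 5.71 to 7.27, so the same score could be high in one set and ordinary in another. Just outside the high class, the next cell of a set scored 6.78 to 7.68 (median 7.55), and the first cell inside it 6.83 to 7.70 (median 7.65). At the lower edge, the last low cell scored 5.04 to 6.40 (median 5.77) and the next cell 5.14 to 6.57 (median 5.97). The edges therefore cut a continuous range.

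The classes also differed in depth. Median total counts were 33852 in high cells and 25718 in low cells, and the high cells had the higher median in 9 of 10 sets. A median of 8750.5 genes had a count in high cells and 8113.5 in low cells. After each cell was thinned at random to 19169 counts, which left out 38 shallower cells, these medians were 6929 and 6924.5. The mitochondrial genome held 0.859% of counts in high and 1.05% in low cells, lower in high cells in 9 of 10 sets. Annotated pseudogenes held 8.88% in high and 7.40% in low cells, higher in 9 of 10 sets. How far these shares account for the ratios below was not tested. Values from thinned cells are given for the genes and lists the results turn on; shares of cells keep the classes above, and ratios use classes formed anew after thinning.

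**Figure D1:**
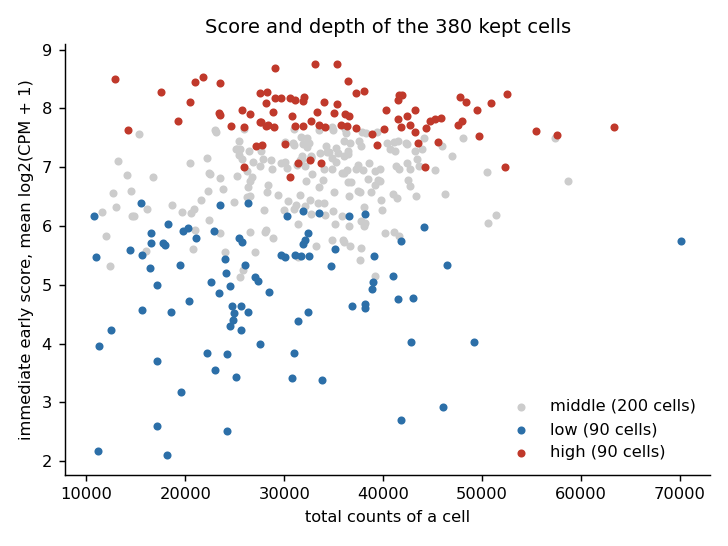
Each point is 1 of the 380 kept cells, with its total counts on the horizontal axis and its immediate early score on the vertical axis. Red points are the 90 high cells (median 33852 counts), blue points the 90 low cells (median 25718 counts) and grey points the 200 cells between; the low cells cover the whole range of depths, up to 70133 counts.

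The 6 gate genes chose the cells, so their levels describe the classes and test nothing. Fos, the partner of Jun proteins in AP-1, had set means of 343.2 to 538 CPM in high cells (median 422) and 174.99 to 368.03 CPM in low cells (median 291.9). The ranges overlapped, and 98.9% of low cells still had a Fos count. Fosb, its paralogue, had set means of 149.5 to 289.4 CPM in high and 15.6 to 108.05 CPM in low cells, with no overlap. Egr1, a zinc finger factor, lay between 208.9 and 355.5 CPM in high and between 76.9 and 174.6 CPM in low cells. Those ranges did not meet either, while 91.1% of low cells had a count. Atf3, a stress-induced member of the ATF family, ranged from 110.7 to 380 CPM in high and from 14.9 to 164.3 CPM in low cells, which overlapped. Zfp36, the mRNA decay factor, spanned 171.8 to 280 CPM in high and 23.5 to 74.2 CPM in low cells. Junb, a Jun family member, spanned 154.5 to 261.2 CPM in high and 11.1 to 114.02 CPM in low cells. Zfp36 and Junb separated all high set means from all low ones, and low cells with a count made up 52.2% for Zfp36 and 60% for Junb. The classes thus differed least in Fos (log2 ratio 0.65) and most in Zfp36 (log2 ratio 2.16), where a log2 ratio is high over low cells, with 1 CPM added to each mean.

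**Figure D2:**
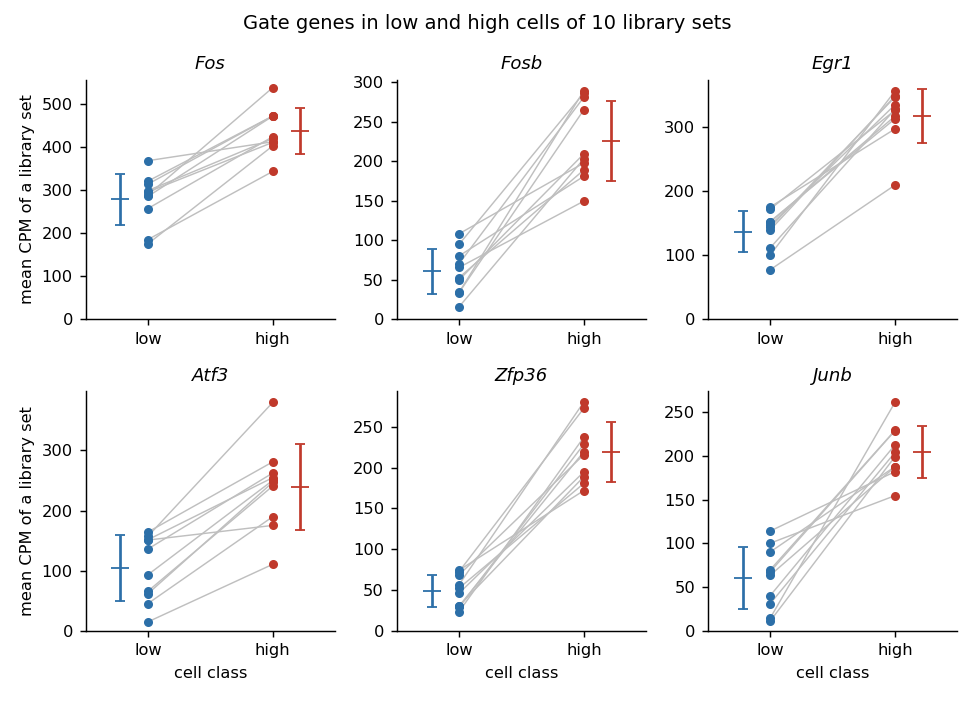
Mean CPM of each gate gene in the 9 low (blue) and 9 high (red) cells of each of 10 library sets, with lines joining the classes of a set and bars for the mean ± SD over sets. Each gene is higher in high cells in all 10 sets, a direction that the choice of cells favours, and the ranges overlap in Fos and Atf3 only.

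A reading that does not use the gene itself came from leaving each gate gene out of the score and forming the classes from the other 5. Egr1 was then 300 CPM in high and 145.6 CPM in low cells, a log2 ratio of 1.04 ± 0.35 (SD, n = 10 sets), and higher in 10 of 10 sets. Zfp36 reached 178.3 against 84.8 CPM, or 1.06 ± 0.84, also in 10 sets. Fos stood at 428 against 296.1 CPM, or 0.53 ± 0.34, in 10 sets. The other three were each higher in fewer than 10 sets. Atf3 gave 0.80 ± 0.42 and was higher in 9 sets, Fosb 0.91 ± 0.72 in 8 sets and Junb 0.91 ± 1.18 in 8 sets. Read this way, the ratios of all 6 gate genes were smaller than with the full gate, which gave 1.88 for Fosb, 2.16 for Zfp36 and 1.75 for Junb. The depth gap was still present in these classes, with median totals of 33852 against 25660.5 for Egr1. Across single cells the genes moved together only loosely: Spearman's rho within sets, averaged over sets, ran from 0.11 to 0.34 over the 15 pairs (median 0.22, 380 cells that share depth). At the thinned depth it ran from 0.07 to 0.29.

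Over the whole table, 14630 genes passed the filter on low values: counts in 10% or more of the kept cells, and a class mean of at least 10 CPM in high or low cells. A gene is called here when it differed at least 1.5-fold and in the same direction in at least 9 of 10 sets. By this rule 2.13% of these genes were higher and 4.78% lower in high cells, and 48.5% had a log2 ratio above 0. By fold alone 1250 genes (8.54%) were higher and 2712 (18.5%) lower, and the median log2 ratio of all tested genes was -0.02. The split depended on the scaling. With size factors taken from the genes that had a count in every kept cell, in place of total counts, the median of all tested genes shifted to 0.21. The cells in the classes changed as well, and median totals lay further apart, at 36402 in high and 25047.5 in low cells. Values under the size factors thus reflect scaling and choice of cells together. Then 3.39% of tested genes were called higher and 0.123% lower, so that 96.5% of calls were higher instead of 30.8%. Small log2 ratios below are therefore to be read against a shift of that size.

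Jund and Fosl2 were the called members of the AP-1 family outside the gate. Of its 12 listed members, 9 passed the filter and 7 of these had ratios above 0, against 48.5% of all tested genes. Of the 9, 2 were called higher and 0 lower, against 2.13% and 4.78%. Their median log2 ratio was 0.59 ± 0.48 (SD, n = 10 sets), against -0.02 for all tested genes, and 0.27 over all 12 when the filter was dropped. Jund, the Jun protein that is present in resting cells, had set means of 141.7 to 304.5 CPM in high (median 208.5) and 116.6 to 170 CPM in low cells (median 140). High cells exceeded low cells in 9 sets although the ranges overlapped, and the log2 ratio was 0.59 ± 0.42. Fosl2, or Fra-2, had set means of 23.7 to 137.8 CPM in high and 8.35 to 50.8 CPM in low cells. It too was higher in 9 sets with overlapping ranges, at 1.16 ± 1.08. Jun itself, the central AP-1 subunit, was abundant in both classes at 325.3 and 253.3 CPM. Its ratio of 0.36 ± 0.50 was above 0 in 7 sets and was not called. Maff, a small Maf protein, had the highest ratio (1.44 ± 2.04) on 56 and 18 counts, and Batf (-0.60 ± 1.75) and Mafg (-0.37 ± 1.85) the lowest, all 3 short of a call. At the thinned depth neither Jund (0.57) nor Fosl2 (0.63, higher in 6 of 10 sets) was called, and Jund lay just under 1.5-fold.

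Among 26 other immediate early regulators, Klf10, Egr2, Tiparp and Rhob were called higher and none lower. Of the 26, 22 passed the filter and 21 of these lay above 0, against 48.5% of all tested genes, of which 2.13% were called higher. The median log2 ratio was 0.54 ± 0.35 (SD, n = 10 sets), and 0.46 over the 25 with a count in at least 5 kept cells. Klf10, a zinc finger factor induced by TGF-beta, had set means of 94.9 to 209.4 CPM in high (median 146.1) and 11.7 to 119.1 CPM in low cells (median 67.6). It was higher in 10 of 10 sets although the ranges overlapped, with a log2 ratio of 1.12 ± 0.87. Thinning kept 87 of the 90 high and 70 of the 90 low cells. Of these, 82.8% of high cells (95% interval 73.2 to 90.02) and 61.4% of low cells (49.03 to 72.8) had a Klf10 count. Such intervals treat cells as independent draws, ignore the library sets and are no spread over animals. Egr2, the paralogue of Egr1, had set means of 2.46 to 65.01 CPM in high (median 36.8) and 0 to 34.6 CPM in low cells (median 3.72). High cells led in 9 sets, at 1.63 ± 1.78, and at the thinned depth 31.03% of high (21.5 to 41.9) and 11.4% of low cells (5.07 to 21.3) had a count. Tiparp, an ADP-ribosyltransferase induced through the aryl hydrocarbon receptor, had means of 77.4 and 38.1 CPM, a ratio of 1.00 ± 1.93. Rhob, a small GTPase that is itself an early response gene, had 69 counts in high and 21 in low cells and a ratio of 1.23 ± 1.02. Both were higher in 9 sets, but with score and values from thinned cells Tiparp alone was called, and Rhob (higher in 6 sets) and Egr2 (higher in 7 sets) were not. Tiparp lost its call when the score was adjusted for counts and genes (higher in 6 sets), and it was called in 11 of 22 other settings.

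The remaining regulators ranged from Klf5 to Csrnp1. Csrnp1, a nuclear protein induced by Axin, had the largest ratio of the list at 2.43 ± 2.28, from 78 counts in high and 8 in low cells. It was higher in only 7 sets, so it was not called. Ier2, a short early response gene, had a count in every high and every low cell, with means of 330 and 281.6 CPM. Its ratio of 0.23 ± 0.30 was above 0 in 7 sets and lay close to the scaling shift. Hes1, the Notch target, was likewise near even at 436 and 403 CPM (0.12 ± 0.23). Klf5, a factor of proliferating crypt cells, stood at 219.4 and 241.1 CPM (-0.14 ± 0.25). Ier2, Hes1 and Klf5 are all abundant, and no count in this table exceeds 36. With high counts mapped back as if they saturated just above that value, the ratios were 0.27 for Ier2, 0.22 for Hes1 (higher in 9 sets) and -0.18 for Klf5, and none was called.

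**Figure D3:**
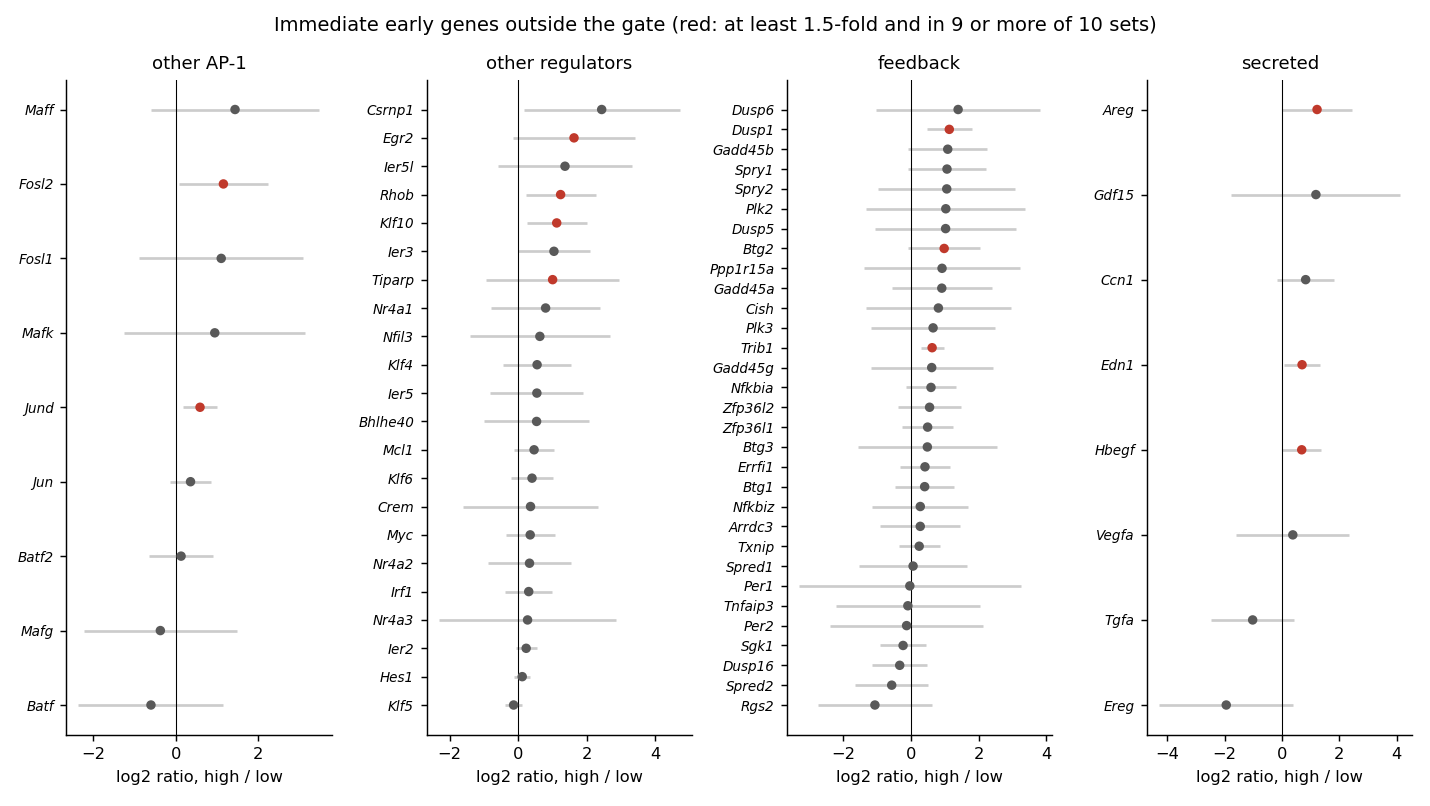
Log2 ratio of mean CPM, high over low cells, for every member past the filter of 4 lists (AP-1 outside the gate, other regulators, feedback genes, secreted factors); grey lines are ± SD over 10 library sets. Red points are the genes called higher (2, 4, 3 and 3 per list, against 2.13% of all tested genes). No member is called lower, and genes with few counts have the widest lines.

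Negative feedback genes contributed Dusp1, Btg2 and Trib1. Of 41 listed members 31 passed the filter and 24 lay above 0, against 48.5% of all tested genes. Of the 31, 3 were called higher and 0 lower, against 2.13% and 4.78%. The median log2 ratio was 0.55 ± 0.43 (SD, n = 10 sets). Without the filter the median of 40 members was 0.48. Dusp1, the nuclear MAP kinase phosphatase, had set means of 38.1 to 200 CPM in high (median 139.5) and 21.3 to 142.4 CPM in low cells (median 48.1). High cells exceeded low cells in all 10 sets, with overlapping ranges, at 1.13 ± 0.67. At the thinned depth 77.01% of high (66.8 to 85.4) and 54.3% of low cells (41.9 to 66.3) had a Dusp1 count. Btg2, an antiproliferative partner of mRNA deadenylases, had set means of 117.6 to 215.7 CPM in high (median 161.3) and 15.4 to 135.4 CPM in low cells (median 90.5). It too was higher in all 10 sets and overlapped, at 0.98 ± 1.07. Trib1, a pseudokinase that binds MAP kinase kinases, had means of 140.8 and 90.99 CPM, 0.62 ± 0.34 in all 10 sets. Its call was lost when depth was thinned or adjusted for, where high cells led in 7 or 8 sets. Dusp6, the cytoplasmic ERK phosphatase, had a ratio of 1.39 ± 2.42 on 58 and 21 counts and was not called. At the other end, Rgs2 (-1.06 ± 1.69, 14 and 33 counts) and Spred2 (-0.57 ± 1.08), inhibitors of G protein and Ras signalling, were not called either.

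Secreted early response products were mostly rare in these cells: 8 of 19 passed the filter, and 6 of these lay above 0, against 48.5% of all tested genes. Areg, Edn1 and Hbegf were called higher, against 2.13% of all tested genes. The median log2 ratio of the 8 was 0.69 ± 0.64 (SD, n = 10 sets), and 0.25 over the 17 with a count in at least 5 kept cells. Areg, the EGF receptor ligand amphiregulin, had set means of 33.3 to 134.2 CPM in high (median 96.9) and 5.59 to 116.5 CPM in low cells (median 27.6). It was higher in 9 sets with overlapping ranges, at 1.22 ± 1.22, and 58.6% of high against 35.7% of low cells had a count at the thinned depth. Edn1, the peptide endothelin, had set means of 199.4 to 310 CPM in high (median 232.01) and 62.4 to 281.3 CPM in low cells (median 144.2). Hbegf, another EGF receptor ligand, had set means of 142.8 to 302.99 CPM in high (median 198.9) and 51.9 to 201.8 CPM in low cells (median 128.1). Both overlapped and were higher in 9 sets, Edn1 at 0.70 ± 0.61 and Hbegf at 0.69 ± 0.69. The ligands did not all share the direction. Ereg (2.48 and 12.4 CPM) and Tgfa (27.4 and 56.8 CPM), also of the EGF family, had ratios of -1.95 ± 2.33 and -1.03 ± 1.44, with no call.

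The pathway above these genes was nearly even between the classes. Of 40 listed receptors, kinases and resident transcription factors, 39 passed the filter, 25 lay above 0 and 1, the small GTPase Hras, was called higher (71.5 and 44.5 CPM). Over all tested genes 48.5% lay above 0 and 2.13% were called higher. With score and values from thinned cells Hras was not called (0.55, higher in 7 sets). The median log2 ratio was 0.06 ± 0.13 (SD, n = 10 sets) and the mean of the set medians 0.13, both within the scaling shift. Erbb2, a receptor kinase of the EGF receptor family (0.74 ± 1.47), and Elk4, a partner of serum response factor (0.68 ± 1.26), had the highest ratios. Map2k6 (-0.46 ± 1.14) and Mapk8 (-0.40 ± 1.5), of the stress kinase arm, had the lowest, and none of these 4 was called.

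Chaperone genes of the heat shock response included 2 calls. Of 23 listed, 20 passed the filter and 15 lay above 0, against 48.5% of all tested genes, of which 2.13% were called higher. The median log2 ratio was 0.16 ± 0.25 (SD, n = 10 sets). Hspa1a, the inducible Hsp70, had means of 73.5 and 27.04 CPM and was higher in all 10 sets, at 1.41 ± 0.93. Its near-identical copy Hspa1b can share its reads, so the split between the copies is uncertain. Hspa1b itself was not called. Over 22 other settings its ratio lay between 0.15 and 1.05, with a call in 2. Dnajb1, the Hsp40 partner of Hsp70, had means of 212.03 and 106.2 CPM and was higher in 9 sets, at 0.99 ± 0.53. Both were also called with score and values from thinned cells, at 1.12 for Hspa1a and 0.90 for Dnajb1. The constitutive Hsp90ab1 (574 and 619 CPM, -0.11 ± 0.18) and the regulator Hsf1 (49.3 and 52.3 CPM, -0.08 ± 1.71) were not called. Other stress lists had medians of similar size: the unfolded protein and integrated stress response had 0 of 19 called (median 0.12), the oxidative response 0 of 14 (0.13) and p53 targets 2 of 16 (0.18). The 2 were Pmaip1 (58.4 and 28.6 CPM, 1.01 ± 1.53) and Bbc3 (17.1 and 6.67 CPM, 1.24 ± 2.20), which encode the proapoptotic proteins Noxa and Puma. With score and values from thinned cells neither was called, and the ratio of Bbc3 was 0.30 (higher in 5 sets). Bbc3 was called in 10 of the 22 other settings.

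Lgr5, the R-spondin receptor whose locus drives the fluorescent protein used for sorting, was lower in high cells in 10 of 10 sets. Set means were 122.7 to 229.1 CPM in high (median 160) and 170 to 330.8 CPM in low cells (median 250), which overlapped. The log2 ratio of -0.53 ± 0.36 (SD, n = 10 sets) stayed short of 1.5-fold, so Lgr5 was not called. It lay between -0.82 and -0.29 over 22 other settings, with the smallest size under the size factors, and passed the rule in 3 of them, the thinned depth included. Mean Lgr5 over 4 successive bands of the score went from 247.8 CPM in the lowest, the low cells, through 220.5 and 195.5 to 171.3 CPM in the highest. The stem cell list, which includes Lgr5, was close to even: 10 of 23 lay above 0, against 48.5% of all tested genes. None was called, and the list median was -0.06 ± 0.10. Tnfrsf19, a Wnt target of the crypt base, had a lower ratio than Lgr5, -0.84 ± 0.95 (lower in 7 sets), and the RNA-binding protein gene Msi1 had 0.44 ± 1.11. Mex3a, named in the title of the study, had 22 counts in high and 17 in low cells, a ratio of -0.31 ± 2.98, and no difference was detectable at this depth. Genes of S phase (median -0.03, 0 of 44 called) and of G2 and M phase (0.11, 0 of 54 called) were near even, as was the proliferation marker Mki67 at 319.03 and 305.2 CPM (0.06 ± 0.33).

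Lists of other crypt functions held few calls, and of all tested genes 2.13% were called higher and 4.78% lower. Ribosome biogenesis had a median log2 ratio of 0.07 ± 0.10 (SD, n = 10 sets), with Rrs1, a ribosome assembly factor, called higher at 57.9 and 31.1 CPM. Among junction and cytoskeleton genes (median 0.05 ± 0.14), the tight junction gene Cldn4 was called higher at 34.5 and 15.3 CPM. Tjp1, the scaffold ZO-1 of the same junctions, was called lower at 80.1 and 124.1 CPM, and its ratio moved from -0.63 to -0.07 under the size factors. The Notch list (median -0.08 ± 0.36) held the ligand gene Jag1, called higher at 23.05 and 11.05 CPM in 10 sets. None of these 4 was called when both the score and the gene values came from thinned cells. Reserve stem cell genes (0 of 7 called, median 0.06 ± 0.38) and MHC class II genes (0 of 7 called, median 0.05 ± 0.32) were near even.

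**Figure D4:**
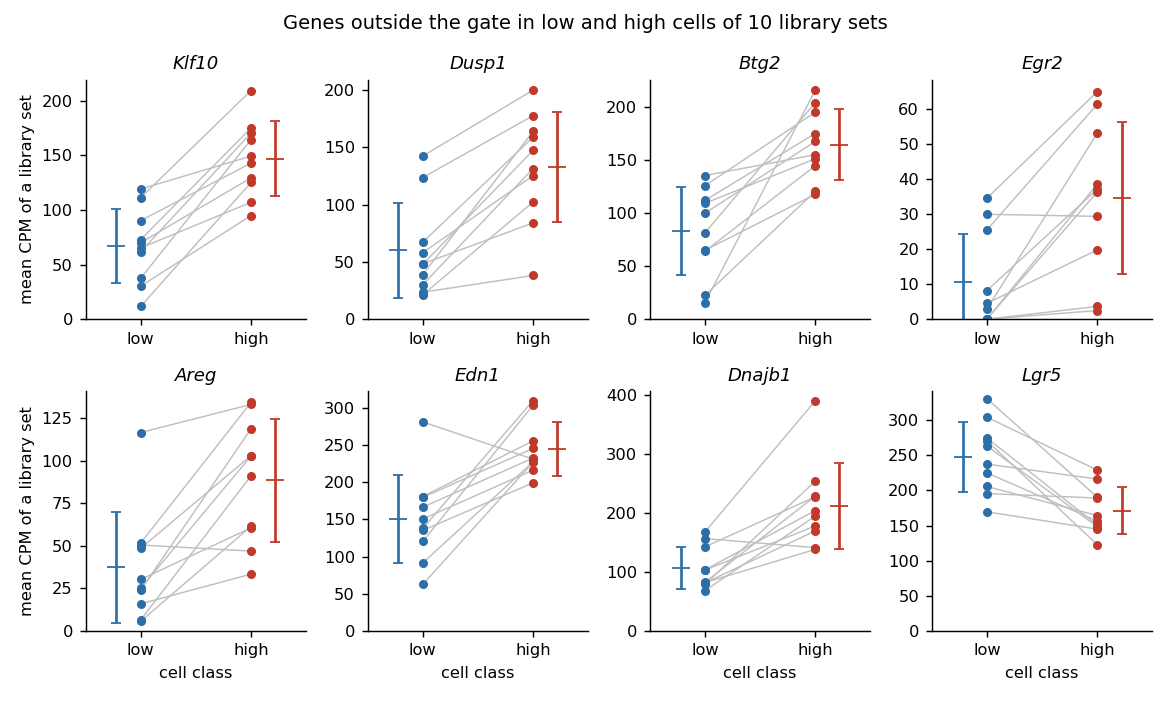
Mean CPM in the 9 low (blue) and 9 high (red) cells of each of 10 library sets for 8 genes outside the gate; lines join the classes of a set, and bars are the mean ± SD over sets. Klf10, Dusp1 and Btg2 are higher in high cells in all 10 sets, Egr2, Areg, Edn1 and Dnajb1 in 9, and Lgr5 is lower in all 10.

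Between the extremes, the 200 cells in the 2 middle bands of the score gave intermediate values for some genes. Klf10 means were 66.98, 90.9, 115.1 and 146.8 CPM from the lowest to the highest band of the score. Dusp1 went through 60.1, 74.5, 95.3 and 132.9 CPM, and Btg2 through 82.96, 112.4, 144.6 and 164.6 CPM. These 3 feedback and regulator genes thus climbed at each step. Edn1 was flat over the lower 3 bands at 150.6, 153.1 and 153.7 CPM and reached 245.1 CPM in the highest. Hbegf was similar, at 127.4, 147.3, 150.7 and 205.6 CPM. Median totals of the 4 bands were 25718, 31720, 34909.5 and 33852, so depth differed mainly between the lowest band and the rest.

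Markers of other crypt cell types were present in both classes. Calls of single markers below stand against 4.78% of all tested genes called lower. The 10 Paneth cell markers summed to 719 to 2463 CPM per set in high and 820 to 3327 CPM in low cells, lower in high cells in 8 of 10 sets. Of these, 0 of 10 had a ratio above 0, against 48.5% of all tested genes (median -0.54 ± 0.70), and none was called. With score and values from thinned cells the median was -0.08 and 3 of 10 lay above 0, and with the score adjusted for total counts it was 0.11. The goblet list summed to 340 to 956 CPM in high and 443 to 1703 CPM in low cells. Its median was -0.35 ± 0.97, and the mean of its set medians was -0.09. Zg16, a mucus lectin and 1 of the 10 list members past the filter, was called lower at -0.67 ± 1.07. In thinned cells the goblet median was -0.07. Tuft markers summed to 99.5 to 440 CPM in high and 121.3 to 726 CPM in low cells. Of 6 past the filter 1 had a ratio above 0, and the median was -0.53 ± 0.51. Over the settings run this median lay between -1.04 and -0.03. Rgs13, 1 of the 6, was called lower at -1.87 ± 1.82, though not with score and values from thinned cells (-0.89). Enterocyte markers were even in mean sum, at 709 and 711 CPM, and the enteroendocrine list had no member past the filter. Immune markers summed to 96.3 CPM in high and 142.7 CPM in low cells, with Cd3g, Cd8a, Cd79a and Tyrobp at 0 in high cells and Cd8a at 0 in low cells. Endothelial markers summed to 48.6 and 76.5 CPM, with Emcn, 1 of 2 past the filter, called lower (-0.27 in thinned cells, not called). Stromal markers summed to 16.3 and 32.6 CPM, with Lum at 0 in high cells. The epithelial list, by contrast, summed to 2459 and 2365 CPM (median 0.06 ± 0.13). The part of other cell types in the differences above was not tested.

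The called genes with the highest ratios over the whole table were rare transcripts. The protein-coding genes at the top were Klf16, 2610021A01Rik, Clcn2, Hpdl, Slc30a1, Gstp2, Ggh, Cklf, Egr2, Mettl27, Cnksr1 and Ppp1r35. Klf16, a Krüppel-like factor, headed them at 2.49 ± 2.46 on 57 and 7 counts. Slc30a1, the zinc exporter of the plasma membrane, had 19.4 and 4.81 CPM (1.81 ± 1.05, 10 of 10 sets). Ggh, a lysosomal enzyme of folate turnover, had 46.4 and 13.2 CPM (1.74 ± 1.83, 10 of 10 sets). At the bottom were Zfp248, Lrrc56, Cmtm2a, Gm2916, Gm1604a, Piwil2, Ston1, Tex16, T2, Cfap300, Rbpms and Ms4a13. Zfp248 had 4 and 21 counts (-2.45 ± 1.70) and Piwil2, a germline Piwi protein, 27 and 91 (-2.12 ± 1.74). Genes at both ends passed the filter of 10 CPM through 1 class only. Examples are Hpdl (16.2 and 3.67 CPM), Slc30a1 and, at the bottom, Gm1604a (4.64 and 23.5 CPM). Bbc3 and Rhob, named above, passed it through the high cells only. The filter favours large ratios in such genes, so their direction and size are partly set by it. Pseudogenes made up 33.1% of the genes called higher, 1.86% of those called lower and 7.44% of all tested, in the same direction as the pseudogene share of the cells. Reads of a pseudogene and its parent gene can be confused, and whether this share moves with depth or with the score was not tested.

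Few calls held when the depth gap was reduced. In 4 settings, the score came from thinned cells, the score was adjusted for total counts without or with the number of genes, or cells under 20000 counts were left out, where median totals were still 35150 in high and 30871.5 in low cells. Genes called higher were 2.13% of the 14630 tested. Each of the 4 settings alone kept 38 to 85 of them. A gate without Junb kept 96, the fewest of the gates lacking 1 gene, at median totals of 34097.5 and 26462.5. Calls were thus also lost where the depth gap stayed, and the part of depth in the loss was not tested. Of the genes called higher, 21 were called in all 4 settings, 19 protein-coding and 2 pseudogenes. They included Egr2, Klf10, Dusp1, Btg2, Areg, Edn1, Hbegf, Hspa1a, Dnajb1 and Pmaip1 from the lists. When gene values were thinned as well, 13 of the 21 were called, and Egr2, Edn1 and Pmaip1 were not. Under the size factors, 19 of the 21 were called. Among the others was Id3, an inhibitor of basic helix-loop-helix factors, at 220.8 and 128.8 CPM (0.77 ± 0.45), which was called neither with thinned values nor under the size factors. Tm4sf5, a tetraspan membrane protein, stood at 120 and 64.7 CPM (0.88 ± 0.38), and Hist1h2bc, a histone gene, at 110 and 59.9 CPM (0.86 ± 0.49). Of the genes called lower, 4.78% of those tested, 15 were called in all 4 settings, and 0 of these under the size factors. Xrcc4, a DNA end-joining factor, was one of them, at 44.96 and 79.8 CPM (-0.81 ± 0.49), and its log2 ratio under the size factors was -0.17. Id3, Tm4sf5, Hist1h2bc and Xrcc4 were picked out after their values were seen.

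**Figure D5:**
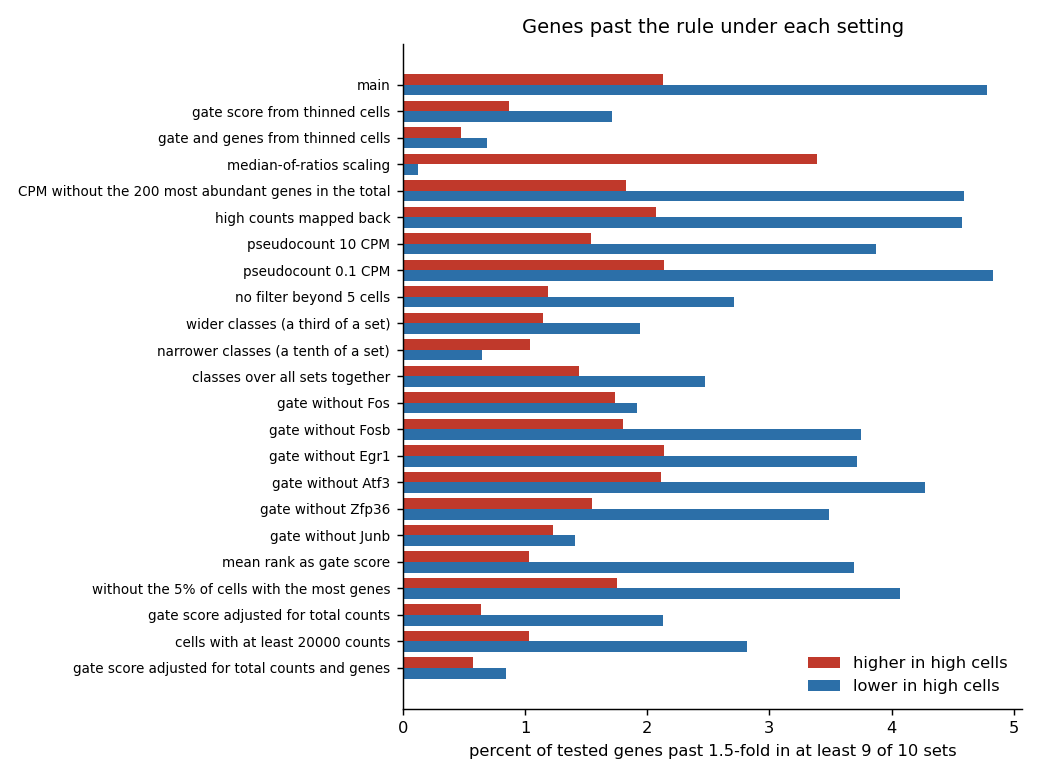
Percent of tested genes past 1.5-fold and in the same direction in all library sets or all but 1, higher (red) and lower (blue) in high cells, under the main setting and 22 others; the last 3 were chosen after the data were seen. Higher calls range from 0.475% to 3.39% and lower calls from 0.123% to 4.83%, and only median-of-ratios scaling and the narrower classes give more higher than lower calls.

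The promoters of the called list genes were searched in the same way as those of the gate. Of the 12 genes called higher in the AP-1, regulator, feedback and secreted lists, 9 had a RefSeq promoter entry. The full cAMP response element TGACGTCA was found in Dusp1, Btg2 and Areg, 3 of the 9, and in 1.62% of all promoters. It was found in none of the 5 gate promoters shown above, of which 4 carried its TGACG part. GCGNGGGCG stood in Fosl2 and Btg2, and a CArG box or TGANTCA in none of the 9. Uncalled members of these lists were not searched, so whether the motifs go with being called was not tested.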

How the data were processed

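Single-cell RNA-seq counts from 1 group of 400 cells were used. The deposited table held whole-number counts per gene and cell, not normalized. The submitters' processing notes name the build GRCm38.p4. Not given in the sources used here are the aligner, the counter, strand handling and molecular identifiers. Symbols came from GENCODE M21 and were found for 33219 of 33496 identifiers. Of 230 genes named or listed, 75 have exons that overlap another gene, Dusp1, Junb, Zfp36, Jun, Edn1 and Hspa1a among them, and their counts may be shared.

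CPM, classes, ratios and thinning were computed in Python 3.11.15 with numpy 2.4.6, pandas 2.3.3 and scipy 1.17.1, with a pseudocount of 1 CPM and a filter of 10% of cells and 10 CPM. The code was tested on simulated data. Doublets were not called, and 1 alternative left out the 5% of cells with the most genes. Intervals for shares of cells are exact Clopper-Pearson intervals at 95%. They treat the cells of 1 sample as independent draws, ignore the library sets and do not cover differences between animals. Totals of kept cells ranged from 10766 to 70133 counts. All 10 library sets use the same 40 barcode numbers, and no pair of cells had identical columns. Named were the 6 gate genes, called members and the 2 highest and 2 lowest of the AP-1, regulator and feedback lists, the 2 highest and 2 lowest of every other list, the 12 highest and 12 lowest called protein-coding genes, and Jun, Ier2, Mex3a, Lgr5 and Mki67. The members and lists were chosen with earlier results of these data known. Promoters came from RefSeq (GRCm38.p6), and Egr1, Klf10, Trib1 and Hbegf were not matched.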

Additional observations from a re-analysis of the deposited data

Results flagged for a closer look

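The median log2 ratio of the junction and cytoskeleton genes was 0.39 in 1 library set, against -0.09 to 0.13 in the other 9 sets. A gap of this size appears by chance in about 1 in 20 groups, and 1 value per list, gate gene and depth measure was examined in this way. Fos was also present in the 20 cells left out for having fewer than 10000 counts: 100% of them had a Fos count (20 of 20, exact 95% interval 83.2 to 100), at totals of 4491 to 9841 counts. Fosb had a count in 8 of these 20 cells.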

How the results depend on the processing

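The median log2 ratios of the 3 main lists stayed above 0 in all settings run: 0.27 to 0.78 for AP-1 genes outside the gate, 0.39 to 0.83 for other regulators and 0.39 to 0.76 for feedback genes. With 1 library set left out they ranged from 0.50 to 0.66, 0.44 to 0.62 and 0.48 to 0.62. The numbers of called genes were less stable than these medians, and apart from the depth, class width and number of sets changed by construction, the cause was not tested. Against 2.13% of tested genes called higher and 4.78% lower, a score from thinned cells gave 0.868% and 1.71%. Thinned scores and gene values gave 0.475% and 0.691%, and 0.452% to 0.703% and 0.438% to 1.41% in 10 other draws. Median-of-ratios scaling gave 3.39% and 0.123%, wider classes 1.15% and 1.94%, and narrower classes 1.04% and 0.647%. Classes over all sets together gave 2.47% lower, and without the filter, where more genes were tested, 1.19% and 2.71%. A gate without Fos gave 1.92% lower, a gate without Junb 1.23% and 1.41%, and a mean-rank score 1.03% higher. Chosen after seeing the data, a score adjusted for total counts gave 0.64% and 2.13%, cells with at least 20000 counts 1.03% and 2.82%, and adjustment for counts and genes 0.575% and 0.841%. Leaving out 1 set (call in at least 8 of 9 sets) gave 2.48% to 3.37% higher and 5.17% to 7.58% lower. The lower calls were 7.58% without set 1, and without set 9 the calls were 3.37% and 7.38%. The log2 ratio of median totals, 0.40, moved to 0.076 in both thinned settings and to 0.11 with ranks, and reversed to -0.030 and -0.021 with the 2 adjusted scores. It was largest with median-of-ratios scaling, at 0.54. The median over the gate genes, 1.48, moved to 2.33 in the narrower classes. Of the named genes that were called, Emcn (0.29) and Gm2916 (0.96) reversed under median-of-ratios scaling, and uncalled genes such as Batf, Mafg, Mex3a, Msi1 and Hsf1 crossed 0 in some settings. No paired analysis was possible because the labels give 1 group and the results come from no test. High and low cells were matched within each library set, and the ratio per set was used for the calls. The printed ratios pool all cells of each class, and 1 setting formed the classes over all sets together. Genes with few counts, such as Mex3a, are limited by depth: summed counts gave a log2 ratio of 0.02 with a counting interval of -0.96 to 1.03. That interval treats single counts as independent and leaves out differences between cells and sets. It is too narrow as a spread, as the ratio of Mex3a was -4.70 in set 2 and 4.54 in set 8.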
